A study of Mus musculus with 6 samples.

Results

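Late-numbered miRNAs are those whose name carries a number of 1000 or more. All names of the form mmu-miR-N with N of at least 1000 were taken, without the miR-1839 and miR-3473 names, and 1 entry was kept for each name, the one with the highest total count. This gave 284 of the 598 miRNA names in the table, against 289 names numbered under 1000 and 17 let-7 names. Exosomes came from wild type RAW264.7 cells, a single established mouse macrophage line. The 3 M0-exo samples came from cells given no cytokine, and the 3 M2-exo samples from cells that received IL-4 and IL-13 at 20 ng/mL each for 24 h. In both groups the medium was then exchanged for one free of serum, and vesicles were pelleted from the supernatant by ultracentrifugation. All 6 libraries carry the label of batch 1. No source states that the replicates were separate cultures, so the p-values below measure the spread between these samples, which may be technical. Each library is a bulk sample, in which fewer vesicles carrying a miRNA and less of it per vesicle cannot be told apart.

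miRNA numbers were given out in the order in which the genes were registered. The low numbers therefore hold the old and conserved families, and the high numbers hold mostly species that deep sequencing found later. A mature miRNA is a short RNA that Drosha and Dicer cut from a hairpin, and it finds its targets mainly through its seed, bases 2 to 8. Some late-numbered miRNAs are mirtrons, short introns that splicing releases as a hairpin without Drosha. Others overlap repeats or abundant RNA such as rRNA and tRNA, whose fragments can be counted under their names. The comparison of M2-exo with M0-exo asked how the miRNA cargo differs between vesicles of unstimulated and cytokine-treated macrophages.

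The sequences in the deposited table were matched by name to RefSeq on GRCm38.p6, which held 244 of the 284 names, with identical sequences. Shown first are the miRNAs that rose or fell in M2-exo and have a RefSeq entry, 5′ to 3′, with the seed in capitals.
miR-6240: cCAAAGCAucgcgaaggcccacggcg
miR-2137: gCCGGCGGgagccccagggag
miR-6538: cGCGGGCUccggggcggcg
miR-6236: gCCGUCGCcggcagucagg
miR-1934-3p: aGGAUGACgguggggcugguga
miR-7118-5p: uGGGGAAGgcgggagagggaac
miR-7017-5p: aGAGGGUUgugagacuagggcugu
miR-7048-5p: cGGGGCUGagaggugaggaagc
miR-3102-5p: gUGAGUGGccaggguggggcug
miR-6907-5p: uUCUGGGAcacagggaggcucg
miR-6998-5p: cUGGGCAGagggcaaagugacu
Of the 2 that rose, miR-6240 lies at chr5:114851973-114851998 on the plus strand, with no gene annotated around it on that strand, and miR-2137 at chrX:72992113-72992133 on the plus strand, in an intron of Zfp185. These positions are of GRCm38.p6. The submitters' processing notes name mm39, and the table itself gives no coordinates. The next 3 sequences show the most abundant intron-spanning hairpin arm and a pair of names that share nearly all their bases.
miR-1981-5p: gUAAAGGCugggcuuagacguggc
miR-1843a-5p: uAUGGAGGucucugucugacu
miR-1843b-5p: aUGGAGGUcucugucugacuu

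The late-numbered miRNAs were richer in G than the older names. G made up 39.3% of their bases, against 26.7% over the names numbered under 1000, while C made up 19.0% and 23.2%. The median GC content was 59.1%, with a range from 28.6% to 100%, against a median of 50%. The highest value, 100%, belonged to miR-5126. A GC content of at least 65% was found in 64 of the 284 names (22.5%) and in 26 of the 289 older names. Purines made up a median of 63.6% of the bases, against 50%. The seed held GGG in 110 late-numbered names (38.7%) and in 27 older names (9.34%), as in GGGGAAG of miR-7118-5p and GGGGCUG of miR-7048-5p above.

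**Figure D1:**
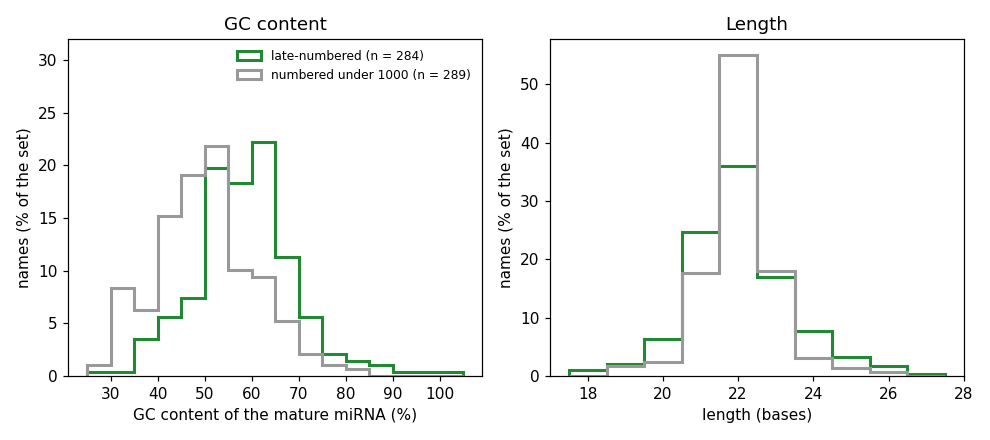
Share of names (%) by GC content of the mature miRNA (left, bins of 5 percentage points) and by length in bases (right), for the 284 late-numbered names (green) and the 289 names numbered under 1000 (grey). The late-numbered names lie further to the right in GC content, with medians of 59.1% and 50%, and fewer of them are 22 bases long, 35.9% against 55.0%.

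Length varied more among the late-numbered names. Both sets had a median of 22 bases, but the late-numbered names ran from 18 to 27 bases. Only 102 of them (35.9%) were exactly 22 bases long, against 159 (55.0%) of the older names, and 37 against 15 had 24 bases or more. The arms were also unequal. Of the late-numbered names 173 were 5p arms, 50 were 3p arms and 61 carried no arm, where the older names had 138, 135 and 16. Among names with a mean of at least 10 counts the late-numbered set had 33 5p arms and 2 3p arms, against 92 and 72. These features were read from the sequences and names alone and have no test.

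Hairpin positions in RefSeq could be set beside the GENCODE M21 gene models for 231 late-numbered and 231 older names. Of the late-numbered names 129 lay inside an intron of a gene on the same strand, against 90 older names, and 23 lay in no gene on their strand, against 68. An exon was overlapped by 63 and 70. A hairpin with both ends within 10 bases of the ends of 1 intron, the layout of a mirtron, was found for 16 late-numbered names (6.93%) and 3 older names (1.30%). Of these 16, 14 were 5p arms. GU, the 2 bases with which most introns begin, opened 19 late-numbered and 6 older mature sequences.

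Depth ran from 863194 to 1453348 counts over the M0-exo libraries and from 860204 to 969974 over those of M2-exo. A count of 0 allows up to 3 counts, which in CPM (counts per 1000000 counts, scaled by TMM, the library scaling of edgeR) is between 1.92 and 3.60 depending on the library. Such limits cover counting error only. Most late-numbered miRNAs stood near this floor, with a median total of 16 counts over the 6 libraries, against 121.5 for the 314 other names. 92 of them were seen in 1 library, and 63 (22.2%) in all 6, against 188 of the 314 other names (59.9%). Macrophage miRNAs named as a check of the line (miR-223-3p, miR-142a-3p, miR-142a-5p, miR-155-5p and miR-146a-5p) were above 0 in every library. Of the muscle and stromal markers miR-133a-3p and miR-145a-5p were not listed, while miR-1a-3p had 0 to 12 counts per library and miR-143-3p 19 to 46. The liver marker miR-122-5p had 2184 counts in M2-exo replicate 3 against at most 137 elsewhere. Serum or red cell miRNAs (miR-451a, miR-486a-5p and miR-16-5p) were all listed, 2 of them above 0 in every library. They summed to between 12854 and 21893 counts per library, against 786 to 2368 for the macrophage miRNAs. miR-16-5p alone had a mean of 17272 counts per library, so this sum was mostly miR-16-5p and says little about the other 2.

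How many late-numbered miRNAs were detected depended on the count required. More than 0 counts were found for 145, 147 and 136 names in M0-exo and for 151, 151 and 161 in M2-exo, with means of 143 ± 5.86 (SD, n = 3) and 154 ± 5.77. Every M2-exo library thus showed more names than every M0-exo library. The same held for names numbered under 1000, with 207 to 211 above 0 in M0-exo and 228 to 238 in M2-exo. With more than 3 counts required the order of the late-numbered names turned, to 138, 132 and 122 names in M0-exo, against 91, 94 and 92 in M2-exo. At 10 or more counts 87, 89 and 67 names remained in M0-exo, against 45, 43 and 44 in M2-exo. Just 6 to 9 late-numbered names stood at 1 or 2 counts in an M0-exo library, against 36 to 50 in an M2-exo library. Names numbered under 1000 had the same shortage of counts of 1 or 2 in M0-exo, 5 to 8 names against 17 to 29, but above 3 counts they were as many in both groups, with means of 197 and 201. At the depth of the smallest library the expected numbers of late-numbered names above 0 were 142 and 153, so the depth moved them little. Whether a minimum count was applied in making the M0-exo columns is not given in the sources used here, and its part in these numbers was not tested.

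**Figure D2:**
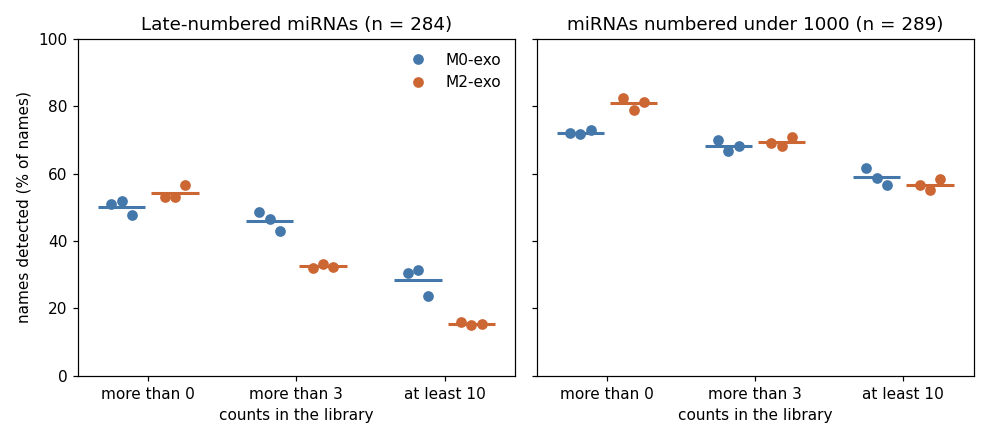
Share of names (%) with more than 0, more than 3 and at least 10 counts in each library, for the 284 late-numbered names (left) and the 289 names numbered under 1000 (right). Points are libraries, 3 of M0-exo (blue) and 3 of M2-exo (orange), and bars are group means. For the late-numbered names the M2-exo libraries lie above the M0-exo libraries at more than 0 counts and below them at more than 3 and at 10 or more.

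A late-numbered miRNA was seen in M0-exo alone for 42 names (14.8%) and in M2-exo alone for 74 (26.1%), against 17 and 44 of the 314 other names. Of the 74, 63 came from 1 library with a median of 2 counts. Of the 42, 29 came from 1 library with a median of 7 counts. Present in every M0-exo library and absent from every M2-exo library were miR-3102-5p, miR-7665-5p and miR-6929-5p. No late-numbered miRNA had the reverse pattern. Of the other names 0 had the first pattern and 4 the reverse. miR-6929-5p had 4, 9 and 3 counts in M0-exo.

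As a share of the library, the late-numbered miRNAs were small and rested on a pair of names. They held 1.10%, 1.39% and 1.32% of the counts in M0-exo, against 1.49%, 1.64% and 1.35% in M2-exo, so the groups overlapped, with means of 1.27% ± 0.148 (SD, n = 3) and 1.49% ± 0.147. miR-6240 and miR-2137 together held 68.4% of these counts in M0-exo and 81.1% in M2-exo. Without those 2 the share was 0.400% ± 0.0430 in M0-exo and 0.281% ± 0.0231 in M2-exo, and the direction of the difference turned. The remaining names were thus lower in sum in M2-exo, with no overlap between the groups. let-7 miRNAs took most counts of each library, and outside them the late-numbered names held means of 5.14% and 6.41%.

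Counts were compared with edgeR's quasi-likelihood test over all 598 names, and a miRNA was called where the absolute log2 fold change was at least 0.5 and the unadjusted p-value below 0.05. By this rule 10% of all names were called, 3.68% higher and 6.35% lower in M2-exo. Of the late-numbered miRNAs 15 of 284 (5.28%) were called, 2 higher and 13 lower, against 45 of the 314 other names (14.3%). Without scaling beyond the library total, which moved the median of all names from 0.03 to -0.18 on the log2 scale, 1 late-numbered name was higher and 22 were lower, and among all names 10 were higher and 63 lower. An offset for GC content, fitted to the GC trend of these same libraries, was an alternative added after the data were seen. With it 4 late-numbered names were higher and 8 lower, beside 21 and 31 of all names. Without M0-exo replicate 2, 5 were higher and 19 lower, beside 26 and 44 of all names. The Benjamini-Hochberg adjusted p from edgeR was below 0.05 for 8.86% of all names and for 6 late-numbered names, 2 higher and 4 lower. In TMM-scaled CPM the groups did not overlap for 22 late-numbered names lower and 4 higher in M2-exo, where 9.53% of all names were lower and 9.53% higher without overlap.

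**Figure D3:**
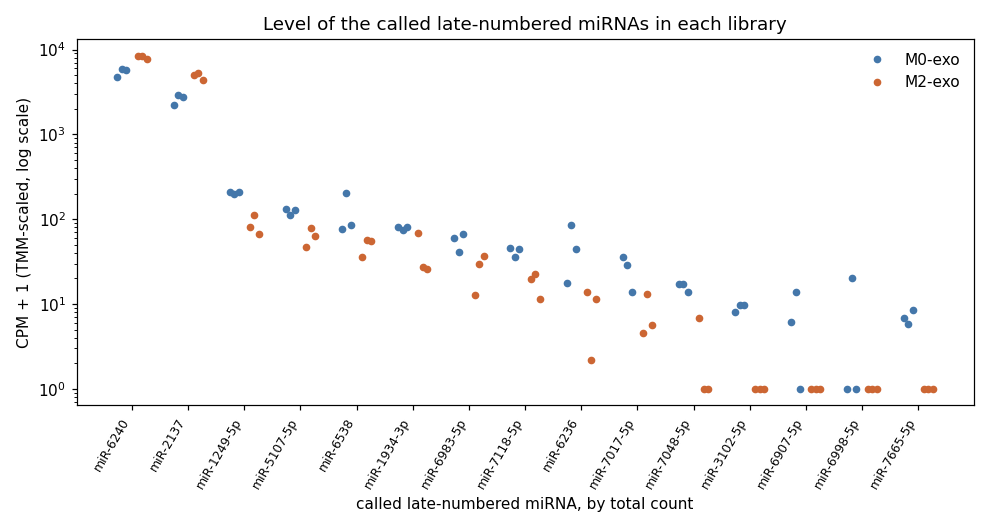
TMM-scaled CPM plus 1 (log scale) of the 15 called late-numbered miRNAs, ordered by total count, in each M0-exo library (blue) and each M2-exo library (orange). The groups are apart for 13 of the 15 miRNAs, while miR-6907-5p and miR-6998-5p have M0-exo libraries at 0 beside the M2-exo libraries at 0.

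The 2 miRNAs that rose were the most abundant ones, and both are on the list of names prone to hold fragments of abundant RNA. miR-2137 had counts of 3427, 3600 and 2540 in M0-exo, against 4268, 4387 and 3834 in M2-exo. Every M2-exo library lay above every M0-exo library, although M2-exo had the lower mean depth. Its CPM rose from 2600 ± 359 (SD, n = 3) to 4880 ± 449, a log2 fold change of 0.91 (standard error, SE, 0.10), with an adjusted p of 1.74e-17 from edgeR that lay between 1.67e-30 and 4.09e-05 over the alternatives. Its GC content was 85.7%, and with the offset for GC content the log2 fold change was 1.72.

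miR-6240, the late-numbered name with the most counts, had counts of 7453, 7350 and 5315 in M0-exo, against 7124, 7089 and 6688 in M2-exo. The counts overlapped, but in CPM the groups did not. Its CPM rose from 5452 ± 594 (SD, n = 3) to 8161 ± 452, a log2 fold change of 0.58 (SE 0.09; by edgeR, adjusted p = 4.99e-09, and 1.34e-15 to 0.000616 over the alternatives). The value sat close to the threshold of 0.5. It was 0.37 without scaling beyond the library total and 0.49 without M0-exo replicate 1, and in neither was miR-6240 called. With the offset for GC content it was 1.17. Its seed, CAAAGCA, is also that of miR-330-3p, which had 84 counts in all against 41019 for miR-6240. The sequences of miR-6240 and miR-2137 occur in no transcript of another gene in GENCODE M21. That search was limited to those transcripts, without a separate set of rRNA and tRNA sequences. It therefore cannot decide whether fragments of such RNA were counted. Whether reads of other RNA were counted under either name was not tested.

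Of the miRNAs that fell, 4 also had an adjusted p below 0.05. miR-1249-5p, from a hairpin that human cells share, had counts of 322, 246 and 192 in M0-exo, against 68, 93 and 57 in M2-exo. All M2-exo libraries stood far below all M0-exo libraries. Its CPM fell from 203 ± 5.69 (SD, n = 3) to 85.4 ± 23.7, a log2 fold change of -1.25 (SE 0.24; by edgeR, adjusted p = 4.13e-06, and 9.24e-08 to 0.00774 over the alternatives). The sequence of miR-1249-5p also occurs in a transcript of the gene 5031439G07Rik, and whether reads of it were counted was not tested. The other arm, miR-1249-3p, was seen in M0-exo replicate 1 alone, with 7 counts.

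miR-6538, whose 19 bases hold 94.7% G and C, lies at chr12:26414970-26414988 on the minus strand in an intron of Rnf144a, which encodes a ubiquitin ligase. It had counts of 117, 252 and 78 in M0-exo, against 30, 46 and 47 in M2-exo. M0-exo replicate 2 was the highest library, and the groups did not overlap. The log2 fold change was -1.32 (SE 0.31; by edgeR, adjusted p = 3.79e-04, and 8.79e-06 to 0.581 over the alternatives). It was -0.72 without M0-exo replicate 2. With the offset for GC content it was -0.38 and the call was lost.

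miR-6236 was one of the names prone to hold fragments of abundant RNA, like the 2 that rose. It had counts of 26, 106 and 41 in M0-exo, against 11, 1 and 9 in M2-exo. M0-exo replicate 2 again held the most counts, and the groups did not overlap. Its log2 fold change was -2.55 (SE 0.61; by edgeR, adjusted p = 4.95e-04, and 1.34e-05 to 0.157 over the alternatives), and it was called in every alternative, at -1.87 without M0-exo replicate 2. miR-5107-5p had counts of 206, 138 and 117 in M0-exo, against 39, 64 and 54 in M2-exo. The groups did not overlap. Its log2 fold change was -1.0 (SE 0.29; by edgeR, adjusted p = 0.0104, and 0.00119 to 0.449 over the alternatives), and -0.53 with the offset for GC content, where it was no longer called.

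A further 5 miRNAs fell at the unadjusted threshold with an adjusted p above 0.05, and each had groups that did not overlap. miR-1934-3p, at chr11:69663092-69663113 on the plus strand, had counts of 124, 92 and 75 in M0-exo, against 58, 22 and 22 in M2-exo. Replicate 1 was the highest library of M2-exo, and without it the log2 fold change was -1.60. With all libraries the log2 fold change was -0.97 (SE 0.36; by edgeR, adjusted p = 0.0766, and 0.0115 to 0.511 over the alternatives), with the call lost without M2-exo replicate 2 (-0.73), without M2-exo replicate 3 (-0.72) and with the offset for GC content (-0.64). The other arm, miR-1934-5p, had counts of 27, 6 and 0 in M0-exo, against 2, 0 and 1 in M2-exo and was not called.

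miR-6983-5p had counts of 92, 50 and 61 in M0-exo, against 10, 24 and 31 in M2-exo. Its log2 fold change was -1.11 (SE 0.45; by edgeR, adjusted p = 0.119, and 0.0485 to 0.631 over the alternatives), and the call was lost without M0-exo replicate 3 (-0.96) or M2-exo replicate 1 (-0.78). The M2-exo library nearest to M0-exo was replicate 3. miR-7118-5p lies at chr15:89162882-89162903 on the minus strand in an intron of Plxnb2, which encodes a semaphorin receptor. It had counts of 69, 44 and 41 in M0-exo, against 16, 18 and 9 in M2-exo. The log2 fold change was -1.28 (SE 0.56; by edgeR, adjusted p = 0.178, and 0.0917 to 0.581 over the alternatives). The call was lost without M2-exo replicate 3 (-1.02) and with the offset for GC content (-0.75).

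miR-7017-5p lies at chr4:133195660-133195683 on the plus strand in an intron of Wasf2, which encodes a regulator of actin branching. It had counts of 54, 35 and 12 in M0-exo, against 3, 10 and 4 in M2-exo. Replicate 3 of M0-exo came near replicate 2 of M2-exo, without which the log2 fold change was -2.63. With all libraries the log2 fold change was -1.90 (SE 0.85; by edgeR, adjusted p = 0.186, and 0.0948 to 0.498 over the alternatives), and the call was lost without M0-exo replicate 1 (-1.60), M2-exo replicate 1 (-1.60) or M2-exo replicate 3 (-1.69). miR-7048-5p, at chr7:25217699-25217720 on the minus strand in an intron of Dedd2, had counts of 25, 20 and 12 in M0-exo, against 5, 0 and 0 in M2-exo. M2-exo replicate 1 alone held its M2-exo counts. The log2 fold change was -2.87 (SE 1.37; by edgeR, adjusted p = 0.238, and 0.0235 to 0.558 over the alternatives), and the call was lost in 5 of 12 alternatives, 4 of which left out 1 library: M0-exo replicate 1 (-2.81), M0-exo replicate 3 (-2.96), M2-exo replicate 2 (-2.29) or M2-exo replicate 3 (-2.31).

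The last 4 called miRNAs had 0 counts in every M2-exo library, so their folds are lower bounds against the floor of 3 counts per library, in TMM-scaled CPM. miR-3102-5p, at chr7:100882388-100882409 on the minus strand, had 11, 11 and 8 counts in M0-exo and was at least 2.32-fold lower in M2-exo (unadjusted p of 0.0174 and adjusted p = 0.144 from edgeR, with the adjusted p from 0.0527 to 0.481 over the alternatives). It was even over the M0-exo libraries. It shares its seed, UGAGUGG, with miR-702-5p, which had 1540 counts. The sequence of miR-3102-5p also occurs in a transcript of Arhgef17, and whether reads of it were counted was not tested. miR-7665-5p had 9, 6 and 7 counts in M0-exo and was at least 1.72-fold lower (by edgeR, adjusted p = 0.318, and 0.146 to 0.812 over the alternatives). Its call was lost in 5 of the 6 fits that left out 1 library, all but that without M0-exo replicate 2.

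miR-6907-5p and miR-6998-5p rested on fewer libraries. miR-6907-5p, at chr10:78408522-78408543 on the minus strand in an intron of Rrp1, had 8, 16 and 0 counts in M0-exo, at least 1.70-fold above the floor of M2-exo (by edgeR, adjusted p = 0.318, and 0.219 to 0.958 over the alternatives). miR-6998-5p, at chr2:31612426-31612447 on the plus strand in an intron of Fubp3, had 24 counts in M0-exo replicate 2 and 0 in the other 5 libraries, a bound of 1.82 (by edgeR, adjusted p = 0.29, and 0.131 to 0.965 over the alternatives). Their groups overlapped at 0, and without M0-exo replicate 2 miR-6998-5p had no counts at all. Of the fits that left out 1 library, miR-6907-5p was called in the one without M0-exo replicate 3 alone, and miR-6998-5p lost its call without any single M2-exo library. The other arms, miR-6907-3p and miR-6998-3p, were not called.

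Among the miRNAs that were not called, 5 names were picked for groups that did not overlap and the smallest p-values. miR-7054-5p, in an intron of Scaf1, had counts of 43, 41 and 12 in M0-exo, against 10, 7 and 6 in M2-exo. Its log2 fold change was -1.44 (SE 0.80; by edgeR, adjusted p = 0.402, and 0.168 to 0.661 over the alternatives), and it was called without M0-exo replicate 3 (-1.73) and without scaling (-1.65). miR-6975-5p, in an intron of Ddx39b, had 14, 16 and 11 counts against 1, 1 and 4. miR-7654-3p, in an exon of Arglu1, had 18, 15 and 5 counts against 2, 0 and 1, at least 2.74-fold lower, and was called by DESeq2 alone. All of these stood lower in M2-exo. miR-1843a-5p and miR-1843b-5p had the same counts, 19, 7 and 10 against 1, 0 and 1, or at least 2.71-fold lower in M2-exo, and were called without M0-exo replicate 2, without scaling and by DESeq2. Their sequences, shown above, share a run of at least 15 bases, and both sets of counts stand under the miR-1843a hairpin, so they are 1 measurement under 2 names. Both sequences also occur in transcripts of CT030161.1 and Scarna3b, and whether reads of these were counted was not tested. A further entry of miR-1843b-5p, under its own hairpin, had counts of 0, 9 and 4 in M0-exo, against 0, 3 and 6 in M2-exo. With the entries of a name summed, the log2 fold change of miR-1843b-5p went from -3.43 to -1.61 and that of miR-1843a-5p stayed at -3.43, and neither was called.

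The abundant miRNAs that were not called included the mirtron miR-1981-5p, at chr1:184822465-184822488 on the minus strand. It had counts of 920, 907 and 728 in M0-exo, against 693, 718 and 571 in M2-exo, with a log2 fold change of 0.15 (SE 0.13; by edgeR, adjusted p = 0.529, and 0.399 to 0.965 over the alternatives). In CPM the groups overlapped. The other abundant names had log2 fold changes of 0.07 (SE 0.16) for miR-5099, 0.28 (SE 0.21) for miR-5128, -0.07 (SE 0.30) for miR-1198-5p and -0.23 (SE 0.35) for miR-5114. The groups overlapped for each. With the offset for GC content miR-5128 was called, at 0.55.

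Beside the few called names, most late-numbered miRNAs of moderate depth had values below 0. To compare names of like depth, the 55 late-numbered names with a mean of at least 10 counts were set beside the 169 older names above that mean. Of the 241 names of any number at that depth 21.6% were called, and of the 55 late-numbered names 11 (20%), 2 higher and 9 lower, a share close to that background. A log2 fold change below 0 was found for 41 of the 55 (74.5%), against 46.2% of the older names. The medians were -0.35 and 0.05. With the library total as the one scaling they were -0.56 and -0.17, and with the offset for GC content -0.24 and -0.02. The median of the 55 was the same with miR-7038-5p, which had 3 counts or fewer in every M2-exo library, set at its bound. Among the 84 late-numbered names with a mean from 3 to under 10 counts, 73.8% had a fitted value below 0, against 42.5% of 40 older names. Called were 4 of the 84 (4.76%), all lower, and 4 of the 40 (10%), all higher. Among the 145 late-numbered names with a mean under 3 counts, 40.7% had a fitted value below 0, against 36.2% of 80 older names, and 0 were called in either. Over all 284 the median fitted value was -0.31, against 0.03 over all names. It was -0.056 against -0.02 with the offset for GC content, and -0.066 against 0.12 without M0-exo replicate 2, so the distance between the sets narrowed in both. The offset was fitted to these data, so its narrowing is no test of GC content. Near the floor these fitted values depend on the prior count of the fit. The classes of mean count were set over both groups together, so a name can pass a limit through M0-exo alone. miR-7048-5p passed a mean of 10 with counts of 25, 20 and 12 in M0-exo, against 5, 0 and 0 in M2-exo. The older names passed the same limits, and the part of this filter in the shares below 0 was not tested.

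**Figure D4:**
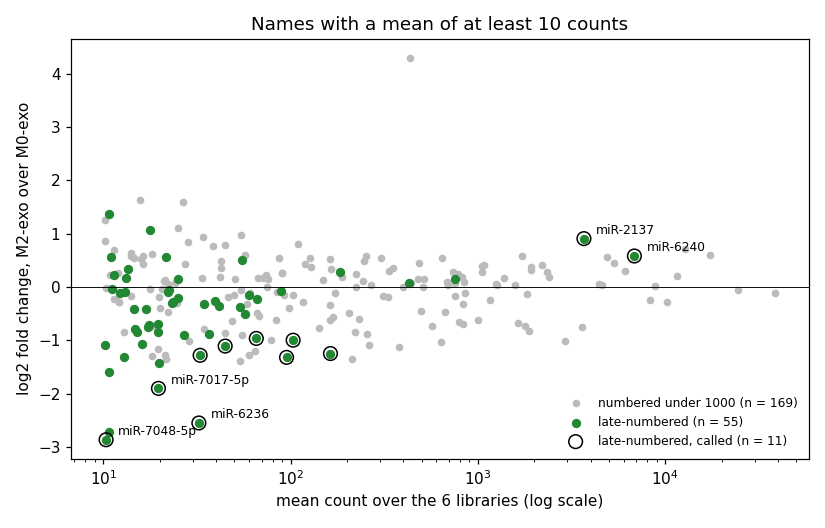
Log2 fold change of M2-exo over M0-exo against the mean count over the 6 libraries (log scale), for the 55 late-numbered names (green) and the 169 names numbered under 1000 (grey) with a mean of at least 10 counts. Rings mark the 11 called late-numbered names, of which those above 0 or below -1.5 are named. Most green points lie below 0, and the 2 called names above 0 are the most abundant ones.

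GC content moved with the fold change in both sets. Among names with a mean count of 10 or more and at least 65% GC, the 18 late-numbered names had a median log2 fold change of -0.82 and the 21 older names one of -0.72. From 50% to under 65% GC the medians were -0.31 over 34 late-numbered names and -0.04 over 76 older names. Below 50% there were just 3 late-numbered names, with a median of -0.03, and 72 older names with one of 0.17. The offset for GC content was fitted to the trend of names at this depth, so it lowers that trend by construction and cannot test it. With it the medians at 65% and above became -0.29 and -0.22, and those from 50% to under 65% became -0.18 and 0.06. The part of GC content in the values of single miRNAs was not tested. The called names miR-2137 and miR-6240 went the other way, higher in M2-exo at 85.7% and 69.2% GC.

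**Figure D5:**
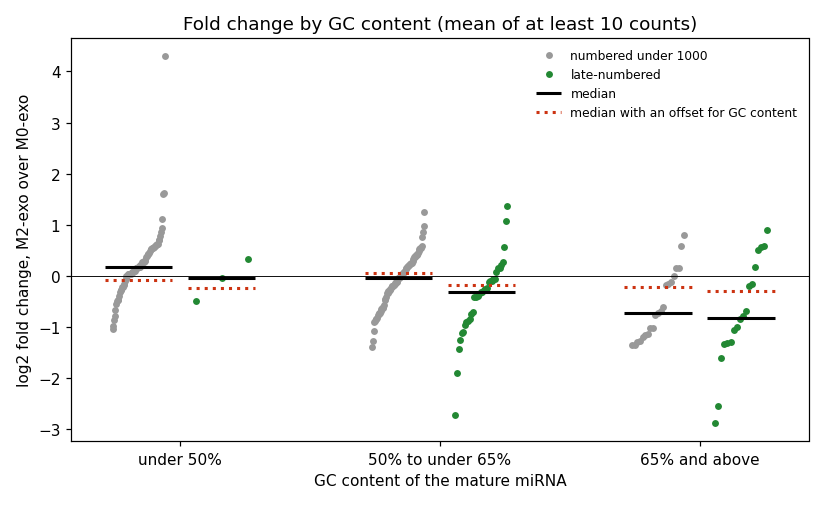
Log2 fold change of M2-exo over M0-exo in 3 classes of GC content, for late-numbered names (green) and names numbered under 1000 (grey) with a mean of at least 10 counts. Each point is a miRNA, drawn in order of its value, black lines are medians and dotted red lines are medians with an offset for GC content. In both sets the median is lowest at 65% GC and above, -0.82 and -0.72, and nearer 0 with the offset. The offset was fitted to these data.

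Of the lists drawn up from general knowledge of these miRNAs, the names prone to hold fragments of abundant RNA carried most counts. The table held 10 of 16 such numbers, under 10 names, with 78.6% of all late-numbered counts. Of these, miR-6240 and miR-2137 rose, miR-6236 fell and 7 were not called, so 30% of the list was called, against 10% of all names. Calls were more frequent at greater depth, with 21.6% of all names at a mean of at least 10 counts. At a mean of at least 100 counts 31.1% of the names that are not late-numbered were called. The list was drawn up with earlier results of these data known. Their summed share was 0.792%, 1.01% and 0.976% of the counts in M0-exo, against 1.27%, 1.39% and 1.13% in M2-exo, which did not overlap. miR-6240 and miR-2137 held 94.9% of the counts of this list, and over the other 8 names the share ran from 0.0437% to 0.0663% in M0-exo and from 0.050% to 0.0531% in M2-exo, with overlap. miR-5126, with 100% GC, had counts of 65, 82 and 22 in M0-exo, against 60, 42 and 58 in M2-exo and was not called (log2 fold change 0.51, SE 0.38; by edgeR, adjusted p = 0.511, and 0.0126 to 0.778 over the alternatives). It was called, higher in M2-exo, with the offset for GC content (1.32) and without M0-exo replicate 2 (0.91). miR-6239 had counts of 17, 11 and 15 in M0-exo, against 26, 28 and 10 in M2-exo and was not called either.

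Of the mirtrons, 2 of 4 listed numbers were found, under 3 names, and 0 were called. miR-1982-5p, from an intron of Oaz1, had counts of 2, 44 and 6 in M0-exo, against 0, 3 and 9 in M2-exo, so a single M0-exo library held most of it. It was called without M0-exo replicate 1 (-2.14). Of the 16 names that span an intron, 0 had an unadjusted p-value below the threshold by edgeR and 0 by DESeq2. By the call rule 10% of all names were called. The 16 had a median total of 8.5 counts, so most stood near the floor. Of the 3 older names that span an intron 2 were called, both lower in M2-exo, at a median total of 1540 counts. After miR-1981-5p the most abundant of the 16 was miR-7068-5p, in Cherp, with counts of 78, 56 and 30 in M0-exo, against 30, 35 and 20 in M2-exo. Of the numbers with a human counterpart 3 of 8 were found, under 6 names, and miR-1249-5p alone was called. miR-1306-5p, from a hairpin in an exon of Dgcr8, the partner of Drosha, had counts of 7, 42 and 11 in M0-exo, against 8, 1 and 8 in M2-exo. miR-3074-5p, whose 2 gene copies give the same mature sequence, had in the entry kept 3, 1 and 0 counts in M2-exo and 0 in each M0-exo library. Its counts cannot be assigned to either copy. With the entries of the name summed its fitted log2 fold change went from 3.83 to 4.78, and it was not called.

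The late-numbered miRNAs had 262 distinct seeds, so most had a seed of their own. A seed was shared by 40 of them in 18 groups of 2 or more, and 12 shared a seed with a name outside the set. The largest group, with the seed GUGGGAG, held miR-6922-5p, miR-6935-5p, miR-6993-5p and miR-7008-5p, and miR-705 shared that seed. Its 2 most abundant members are shown to compare the bases outside the seed.
miR-6993-5p: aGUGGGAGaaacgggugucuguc
miR-6922-5p: uGUGGGAGgggacuguagagagg
miR-6993-5p had counts of 7, 20 and 10 in M0-exo, against 4, 11 and 16 in M2-exo, and miR-6922-5p had 0, 18 and 8 against 2, 7 and 6. Neither was called, and the groups overlapped for both. The repeat-related miR-3470a and miR-3470b share at least 15 bases with each other and occur in transcripts of 441 and 546 other genes, so their counts, of 64 and 47 in all, cannot be assigned to 1 source. Both had overlapping groups.

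By number, the called names were spread over the range. Called were 2 of 43 names with numbers from 1000 to under 2000, 1 of 34 from 3000 to under 4000, 1 of 23 from 4000 to under 6000, 6 of 73 from 6000 to under 7000 and 4 of 110 from 7000 on. In the same order these were 4.65%, 2.94%, 4.35%, 8.22% and 3.64%, each below the 10% of all names. miR-2137 was the single name from 2000 to under 3000. The median totals of the other classes, in the same order, were 31, 16.5, 40, 16 and 9.5 counts, with no steady fall. Just inside the limit of the number, miR-1191a had counts of 19, 7 and 0 in M0-exo, against 0, 2 and 0 in M2-exo, and just outside it miR-935 had 20, 41 and 19 counts against 19, 9 and 6.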

How the data were processed

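Small RNA of exosomes from RAW264.7 cells was measured in 3 M0-exo and 3 M2-exo libraries (NEBNext small RNA kit), grouped by their labels. The authors deposited raw counts per mature miRNA and precursor, with RPM values that equal each count per 1000000 counts of the 638 entries, within 0.005. The counts were used. The submitters' processing notes name mm39, while the aligner, counting tool and miRNA release are not given in the sources used here. 1 entry was kept per name. edgeR 4.0.16 in R 4.3.3 (TMM, estimateDisp, glmQLFit, glmQLFTest) was run on all 598 names without covariates, with Benjamini-Hochberg adjustment. Each SE was the log2 coefficient over the root of its F statistic. Library depth ran from 860204 to 1453348 counts. Called names, the 10 most abundant, 5 non-overlapping ones, other arms, names sharing a sequence and names from lists were described. The members and lists were chosen with earlier results of these data known. The alternatives were DESeq2 1.42.0, no scaling, a mean of at least 10 counts, summed entries, the replicate block, leaving out each library and, added after the data were seen, an offset for GC content and the share without the 2 most abundant names. The offset was a smooth curve (loess) of each library's log ratio to the mean against GC content, over names with a mean of at least 10 counts. Sequences and positions came from RefSeq (GRCm38.p6) and gene models from GENCODE M21. The scripts (Python 3.11.15, pandas 2.3.3, matplotlib 3.10.9) were tested on simulated data.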

Additional observations from a re-analysis of the deposited data

How the results depend on the processing

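Late-numbered calls numbered 15 by edgeR, 6 at an adjusted p below 0.05, 23 without scaling beyond the library total and 18 with DESeq2 1.42.0. With 1 library left out they numbered from 10 to 24, with 24 without M0-exo replicate 2, and calls among all names from 51 to 74. The other settings gave from 11 to 16 late-numbered calls. Libraries with the same replicate number did not deviate together from their group means, with correlations of -0.0430, 0.0163 and -0.0462 over 241 names. With 3 libraries per group this cannot decide whether the samples were prepared in pairs. With the replicate block 11 late-numbered names and 56 of all names were called, and miR-3102-5p, miR-6907-5p, miR-6998-5p and miR-7665-5p were lost. Of the 15 called miRNAs, miR-2137, miR-1249-5p and miR-6236 were called in every alternative, and no called miRNA changed direction. The difference in detected names (M2-exo minus M0-exo) was 11.7 above 0 counts, from 8.33 to 13.8 with 1 library left out, -38.3 above 3 counts and -37.0 at 10 or more. The difference in the share of counts was 0.223 percentage points, from 0.140 to 0.297 with 1 library left out, 1.27 outside let-7, 0.0538 without miR-6240 and -0.119 without the 2 most abundant names. Weighted by counts, the mean length was 23.8 bases and the mean GC content 71.2%. Directions turned for miR-1981-5p without scaling (-0.0637), for miR-5099 without scaling (-0.150), with the offset for GC content (-0.0185) and without M0-exo replicate 1 (from -0.0632 to 0.202 with 1 library left out), and for miR-1198-5p without M0-exo replicate 2 (from -0.155 to 0.0534). The cause was not tested. Depth limits most of the set, since 158 of the 284 names had a group at 3 counts or fewer in every library.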
